A study of Mus musculus with 6 samples.

Results

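Processed pseudogenes of ribosomal protein genes were examined in RAW 264.7 cells, a mouse macrophage line. They were taken from the deposited gene table as entries annotated as processed pseudogenes, with a name that starts with Rpl or Rps and contains -ps, and with at least 10 counts summed over the 6 libraries. The rule gave 107 of 54532 genes. Each was set beside its parent, the gene whose name precedes -ps, which gave 42 parents. The members were chosen by their summed counts, so their counts and levels are given as a description. By name and annotation alone 283 pseudogenes qualified, of which 121 had 0 counts and 55 had 1 to 9. Rpl13-ps5, with 10 counts, lay just inside the limit, and Rpl31-ps5 and Rps12-ps1, with 9 counts each, were among those just outside it.

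The cells were cultured for 3 days on zinc alloys under a calcium phosphate (CaP) coating, and polyadenylated RNA was sequenced. The groups carry the names of the alloys: CaP Zn (zinc), CaP Zn0.8Mn (zinc with manganese) and CaP Zn0.8Mn0.1Li (zinc with manganese and lithium), with 2 libraries each. The coating and the cell line were common to all groups, and there was no group without an alloy. The labels do not say whether the replicates were grown separately, so p-values rest on a spread that may be technical only. Where 6 values follow each other below, they are given in 3 pairs, replicate 1 before replicate 2: first CaP Zn, then CaP Zn0.8Mn, then CaP Zn0.8Mn0.1Li.

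Library totals ran from 14944070 to 17709290 counts. CaP Zn0.8Mn replicate 1 stood apart, with 7.88% of its counts from the mitochondrial genome against 1.82% to 2.15% in the other 5 libraries. All 12 listed macrophage markers were above the limit that 3 counts allow in every library (0.161 to 0.198 CPM, counts scaled to a common library size with TMM factors), with a summed level of 11200 CPM in that library and 11800 to 17600 elsewhere. The 4 epithelial markers, 5 of 6 fibroblast markers and 4 of 6 T and B cell markers were at 0 in every library. The 5 osteoblast markers summed to 13.6 to 17.4 CPM in 5 libraries and 7.47 in CaP Zn0.8Mn replicate 1, with Ibsp at 0 throughout. The 4 granulocyte markers summed to 0.699 to 2.17 CPM in the same 5 libraries and 0.0661 in the sixth, with S100a9 and Mpo at 0, and the 3 endothelial markers to 0.128 to 0.452 CPM over all libraries. The parts of cell state, RNA quality and preparation in the values of CaP Zn0.8Mn replicate 1 were not tested, and the comparisons of the alloys are given with and without it.

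A processed pseudogene arises when a spliced mRNA is copied into DNA and inserted elsewhere in the genome, so that it lacks introns and, as a rule, the promoter of its parent. Ribosomal protein genes, whose mRNAs are abundant in every growing cell, have left many such copies in mammalian genomes. Because a recent copy differs from its parent by few bases, short reads of the parent's mRNA can fit the copy equally well, and the count of a pseudogene can hold reads from the parent or from a further copy. No source used here names the counting program or its handling of reads that fit several places, so the counts below cannot tell transcription of the copy from reads of the parent.

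The likeness of copy and parent can be seen in coding stretches of 5 pairs, chosen after their values were seen because the ratios described below turn on them. Each stretch has 120 bases in GENCODE M21 and was picked for its number of substitutions. Capitals mark the bases at which copy and parent differ. Substitutions are written with the parent's base first, its position counted from 1 at the A of the parent's start codon, and the base of the copy last. Rps10, which encodes a protein of the small ribosomal subunit, and Rps10-ps2 (chr16:20822168-20822287, minus strand, GRCm38) differ by T393C, T408C, C437G, A438G and G473A in this stretch.
Rps10: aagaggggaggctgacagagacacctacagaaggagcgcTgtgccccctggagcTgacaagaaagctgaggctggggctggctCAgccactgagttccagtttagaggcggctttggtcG
Rps10-ps2: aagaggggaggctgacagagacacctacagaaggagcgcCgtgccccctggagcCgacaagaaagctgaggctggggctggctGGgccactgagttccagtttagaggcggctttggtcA
Rpl3, which encodes a protein near the catalytic centre of the large subunit, and Rpl3-ps1 (chrX:13202572-13202691, plus strand) differ by C57A in this stretch. Over its whole length Rpl3-ps1 has 2 substitutions.
Rpl3: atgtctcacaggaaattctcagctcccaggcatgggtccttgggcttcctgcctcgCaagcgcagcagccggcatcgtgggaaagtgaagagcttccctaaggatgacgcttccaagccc
Rpl3-ps1: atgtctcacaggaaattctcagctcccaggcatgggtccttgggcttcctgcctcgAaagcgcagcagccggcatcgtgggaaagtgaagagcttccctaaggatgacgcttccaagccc
Rpl35a and Rpl35a-ps2 (chr1:181242165-181242284, minus strand) differ by G156A.
Rpl35a: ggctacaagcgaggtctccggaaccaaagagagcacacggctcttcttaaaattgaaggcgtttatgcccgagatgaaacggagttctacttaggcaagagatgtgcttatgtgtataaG
Rpl35a-ps2: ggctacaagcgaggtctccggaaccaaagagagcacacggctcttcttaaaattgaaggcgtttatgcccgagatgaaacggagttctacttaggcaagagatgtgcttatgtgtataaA
Rpl23a and Rpl23a-ps3 (chr14:34170655-34170774, plus strand) differ by A116T.
Rpl23a: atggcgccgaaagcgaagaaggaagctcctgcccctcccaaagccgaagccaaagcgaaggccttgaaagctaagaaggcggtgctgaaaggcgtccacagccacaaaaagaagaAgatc
Rpl23a-ps3: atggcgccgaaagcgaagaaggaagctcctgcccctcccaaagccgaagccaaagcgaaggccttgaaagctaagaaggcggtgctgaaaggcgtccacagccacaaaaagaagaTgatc
Rpl28 and Rpl28-ps1 (chr1:128038569-128038688, plus strand) have 0 substitutions over the whole pseudogene, so 1 line stands for both.
Rpl28 and Rpl28-ps1: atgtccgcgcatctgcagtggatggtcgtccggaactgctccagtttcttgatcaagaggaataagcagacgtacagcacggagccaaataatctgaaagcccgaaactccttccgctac

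Close likeness was the rule among the members. Of the 107, 106 could be aligned over at least 50% of their length to a protein-coding transcript of the parent, with a median identity of 99%. The exception was Rpl18-ps1, with 18 counts. In 10 pseudogenes the identity, which leaves out gaps, was 100%, and Rps12-ps4 among them had 1 gap. In 20 no stretch of 50 bases was free of an exact match in another annotated gene, so that no read of that length could mark them alone. A reading frame as long as the parent's protein was open in 65 of the 107. Members lay on 20 chromosomes, with 11 on the X chromosome, and 48 overlapped another annotated gene. Of those, 15 lay in a protein-coding gene on the same strand and 26 in a protein-coding gene on the other strand, where reads of the host cannot be told apart from reads of the pseudogene unless counting used strand, which is not stated.

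Counts were concentrated in few pseudogenes. All members together held 455127 counts. Rpl3-ps1 alone took 25.67% of them, the 5 highest took 63.38% and the 10 highest 81.2%. The median pseudogene had 150 counts over the 6 libraries, and 30 had at least 1000. Per library, the members took between 0.298% (CaP Zn0.8Mn replicate 1) and 0.536% (CaP Zn0.8Mn replicate 2) of all counts, and the parents between 2.578% and 4.745%.

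Counts and identity went together. The 54 members with an identity of at least 99% had a median of 721.5 summed counts, the 41 from 97% to under 99% a median of 78, and the 11 under 97% a median of 32. Across the 106 aligned members, Spearman's rho between identity and summed counts was 0.636, and that between the parent's level and summed counts was 0.0336. These points share libraries, and several share a parent, so the values are a description. Of the pseudogenes with a full reading frame, 65 in number, the median was 295 counts, against 97.5 for the other 42. Their median identities also differed, at 99.29% and 98.56%, and the parts of reading frame and identity were not tested. Rpl36a-ps3 lay apart from the trend, with 219 counts at an identity of 87.54% to Rpl36a, the parent assigned by name. An exact match in Rpl36a was found for 0.0% of its short sequence stretches, and in another annotated gene for 81.62%. Its identity to Rpl36a therefore does not describe its likeness to other genes.

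**Figure D1:**
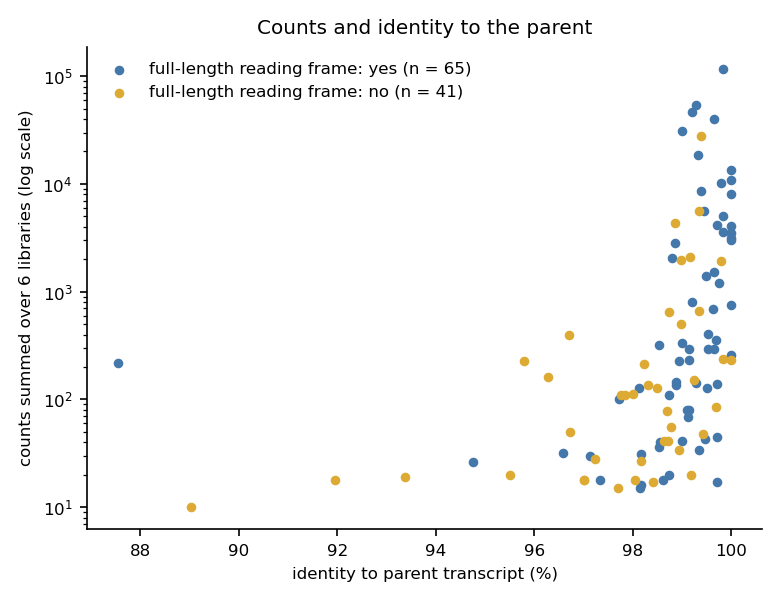
Counts summed over the 6 libraries (log scale) against identity to the parent transcript (%), 1 point per aligned pseudogene (n = 106), coloured by whether a full-length reading frame is open. The points above 1000 counts all lie above an identity of 98%, and the 11 points under 97% reach at most 400 counts.

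Per length, most pseudogenes lay far below their parents. On the scale of deposited FPKM, which divides counts by gene length, the median pseudogene stood at 1.47% of its parent's mean, and 48 stood under 1%. In 11 cases, however, the pseudogene exceeded the parent. Mean FPKM was 637.4 for Rps10-ps2 against 6.025 for Rps10, 528.9 for Rps2-ps13 against 25.66 for Rps2, whose protein lines the path by which mRNA enters the small subunit, and 181.1 for Rpl21-ps15 against 0.6099 for Rpl21, a large-subunit protein gene. Rpl35a-ps2 stood at 124.6 against 21.34 for Rpl35a, and Rps18-ps3 at 125.7 against 45.05 for Rps18, a small-subunit protein gene. Rpl3-ps1, at 976.6 against 637.1, and the pair Rpl17-ps10 and Rpl17-ps3, at 987.1 and 733.8 against 572.0 for Rpl17, a protein gene of the exit tunnel of the large subunit, lay nearer to their parents. The other 3 were Rps10-ps1 (41.55), Rpl21-ps10 (6.739) and Rpl21-ps8 (0.8469). In mean CPM, without division by gene length, some of the 11 lay below their parents. These were Rpl3-ps1 (1192 against 2044), Rpl17-ps3 (412.4 against 447.1), Rps18-ps3 (57.78 against 113.1), Rpl35a-ps2 (41.8 against 75.89) and Rpl21-ps8. The rest lay above their parents in mean CPM as well.

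**Figure D2:**
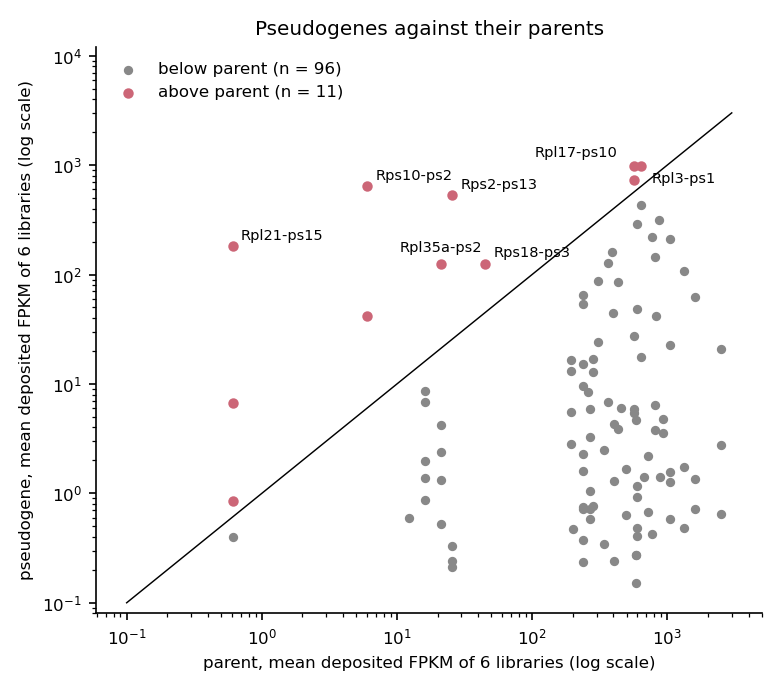
Mean deposited FPKM over the 6 libraries of each pseudogene against that of its parent, both on log scales, with the line of equality. Of the 107 points, 96 lie below the line and 11 above it, with Rpl21-ps15, Rps10-ps2 and Rps2-ps13 farthest above.

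For Rps10, Rps2 and Rpl21, the pseudogenes took 96.01%, 90.85% and 97.8% of the counts of parent and members over all libraries. Rps10 read 13.01 and 15.74, then 0.8591 and 15.19, then 20.77 and 18.59 CPM. Rps10-ps2 read 288.1 and 369.2, then 165.1 and 367.4, then 361.6 and 362.0 CPM. The pseudogene was above its parent in all 6 libraries, and CaP Zn0.8Mn replicate 1 was lowest for both. Rps10 and its 2 members together held 320.9 to 410.4 CPM outside that library.

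Rps2 read 44.36 and 49.83, then 25.77 and 53.97, then 53.97 and 56.31 CPM, and Rps2-ps13 449.3 and 465.0, then 396.4 and 513.2, then 516.6 and 486.0. Here too the pseudogene lay above the parent in every library, and its range was narrow. Rps2-ps10, annotated as a transcribed processed pseudogene and so outside the rule, also shares a 50-base stretch with Rps2. Its mean was 1182 CPM, above the 471.1 of Rps2-ps13. Rpl21 read 1.721 and 2.623, then 1.982 and 1.81, then 2.536 and 1.895 CPM, against 94.31 and 100.2, then 22.8 and 109.2, then 109.9 and 92.45 for Rpl21-ps15. The low reading of CaP Zn0.8Mn replicate 1 was seen in the pseudogene but not in the parent. Rpl21-ps15 lies on the X chromosome in an intron of Wnk3, on the other strand, and Wnk3 itself had 0 counts.

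Several abundant members had a nearly constant ratio to the parent in 5 of the libraries. Rpsa-ps10, a copy of the gene for a small-subunit protein also known as the laminin receptor, read 185.9 and 225.0, then 98.79 and 218.9, then 219.0 and 193.8 CPM. Its log2 ratio to Rpsa lay between -4.04 and -3.97 in 5 libraries, a range of 0.0679, and was -5.05 in CaP Zn0.8Mn replicate 1. Rpl3-ps1 read 1160 and 1375, then 659.2 and 1402, then 1364 and 1192 CPM, with a range of the log2 ratio of 0.101 over 5 libraries and 1.10 over 6. Rpl3 itself read 1865 and 2181, then 2121 and 2102, then 2149 and 1845 CPM, so that its level in CaP Zn0.8Mn replicate 1 lay inside the range of the others while that of Rpl3-ps1 did not.

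In the Rpl23a pair, CaP Zn0.8Mn replicate 1 lay further below the other libraries for the parent than for the copy (log2 difference from their mean -3.13 and -1.02). Rpl23a-ps3 read 100.4 and 119.9, then 56.37 and 121.7, then 120.6 and 109.1 CPM, while Rpl23a, whose protein sits at the exit of the large-subunit tunnel, read 693.3 and 770.7, then 88.48 and 812.8, then 842.4 and 765.3. The log2 ratio lay between -2.81 and -2.68 in 5 libraries and at -0.65 in CaP Zn0.8Mn replicate 1. Rpl35a-ps2 read 46.19 and 52.52, then 5.683 and 51.06, then 52.16 and 43.17 CPM, with ratios to Rpl35a of -1.19 to -0.359 in 5 libraries and -2.68 in the sixth.

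Pseudogenes identical to the parent differed among themselves in this respect. Rpl28-ps1 read 35.27 and 45.74, then 5.154 and 42.79, then 45.46 and 40.42 CPM, and Rpl28, a large-subunit protein gene, 798.9 and 1038, then 115.0 and 941.8, then 983.5 and 938.8. The log2 ratio moved over 0.102 in all 6 libraries, the narrowest range of the 41 members with a mean of at least 50 counts, and CaP Zn0.8Mn replicate 1 was lower by nearly equal amounts in both (log2 difference from the mean of the other 5 libraries -3.02 and -3.03). Rps16-ps2 and Rpl31-ps8, also 100% identical to their small-subunit and large-subunit parents over their length, had ranges of 0.115 and 0.132 over 5 libraries but 0.836 and 0.857 over 6. In CaP Zn0.8Mn replicate 1 the log2 ratio of Rps16-ps2 was -2.29 against -3.13 to -3.01 elsewhere, and that of Rpl31-ps8 -3.91 against -3.19 to -3.06. Rps6-ps4, a copy of the gene for the small-subunit protein phosphorylated in growth signalling, read 70.97 and 81.05, then 69.52 and 99.22, then 96.17 and 75.76 CPM, with a range of 0.710 over 6 libraries and 0.245 over 5. Rps13-ps2, with a small-subunit parent, lay at 2.709 to 10.75 CPM with ranges of 0.667 and 0.408. Of the identical copies with a mean of at least 50 counts, Rpl38-ps2 had the widest range, 1.91 over 6 libraries and 0.377 over 5. For CaP Zn0.8Mn replicate 1, the log2 difference from the other libraries was -1.36 for Rpl38-ps2 and -3.07 for Rpl38. Rpl10a-ps1 and Rpl36a-ps2 had ranges of 0.444 and 0.437 over 6 libraries.

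Among less similar copies with a mean of at least 50 counts, Rps19-ps3 (identity 96.71%) had the lowest identity. Its parent encodes a small-subunit protein mutated in Diamond-Blackfan anaemia. It read 3.656 and 4.222, then 1.784 and 5.106, then 4.89 and 4.83 CPM, with a log2 ratio of -8.26 to -7.96 in all 6 libraries. Rpl21-ps10 (98.54%), next in identity, had a wide range of the log2 ratio, 3.11 over 6 libraries and 1.11 over 5. Its ratio ran from -1.54 in CaP Zn0.8Mn replicate 1 to 1.57 in CaP Zn0.8Mn replicate 2. Rps15a-ps6 (98.73%), in an intron of Nudcd3 on the same strand, kept a ratio of -7.84 to -7.31 to its small-subunit parent. Rpl9-ps7 and Rpl14-ps1, copies of large-subunit protein genes with identities of 99.48% and 99.39%, had ranges of 0.313 and 0.327 over 6 libraries. Rpl14-ps1 read 291.8 and 289.3, then 109.8 and 359.6, then 340.6 and 304.6 CPM and lies in an intron of Trpm4 on the other strand. Over the 41 members of at least 50 mean counts, the median range of the log2 ratio was 0.857 with 6 libraries and 0.408 without CaP Zn0.8Mn replicate 1.

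**Figure D3:**
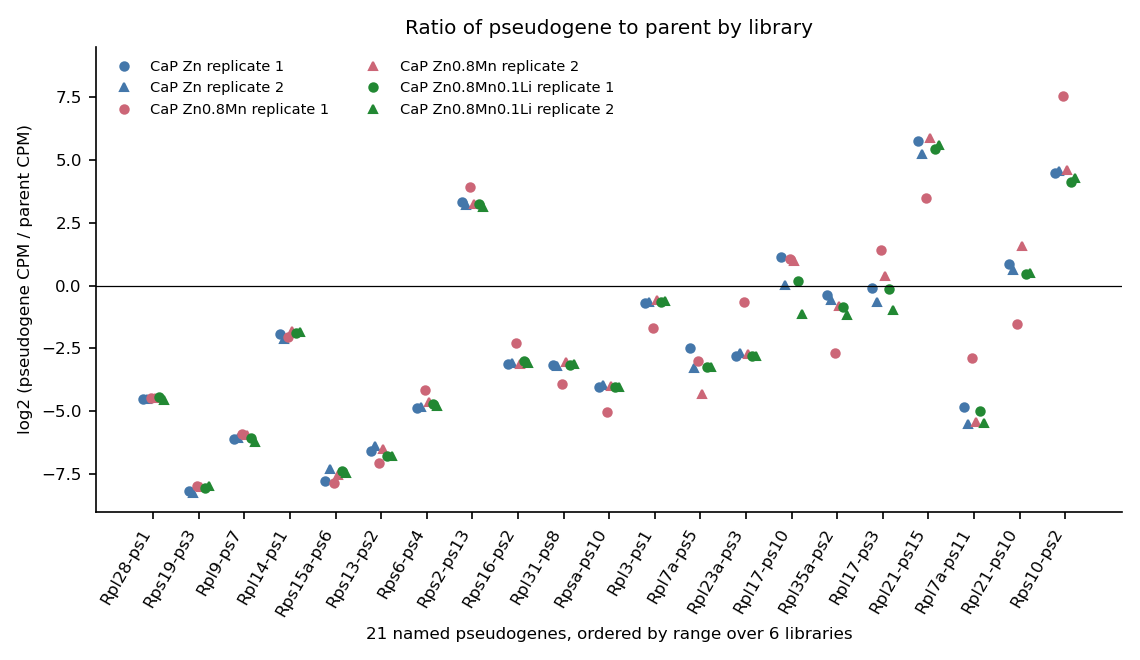
Log2 ratio of pseudogene CPM to parent CPM in each of the 6 libraries for the 21 named pseudogenes, ordered by their range, with colour for the alloy and symbol shape for the replicate. CaP Zn0.8Mn replicate 1 (red circles) lies apart from the other 5 for Rps10-ps2 at 7.54 and Rpl23a-ps3 at -0.65, and inside their range for Rpl28-ps1.

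In the Rpl17 family the ratios to the parent moved between libraries of the same alloy. Rpl17 read 319.1 and 592.9, then 188.3 and 358.4, then 506.5 and 717.7 CPM. Rpl17-ps10 read 700.4 and 610.9, then 391.1 and 709.3, then 581.1 and 324.7, and Rpl17-ps3 302.1 and 381.8, then 504.9 and 462.0, then 457.6 and 366.0. The library with the highest Rpl17, CaP Zn0.8Mn0.1Li replicate 2, had the lowest Rpl17-ps10. Over the 5 libraries other than CaP Zn0.8Mn replicate 1, the highest reading of Rpl17 was 2.25 times the lowest, and the highest sum of Rpl17 and its 5 members 1.19 times the lowest. The log2 ratio of Rpl17-ps10 to Rpl17 ran from -1.14 to 1.13 and that of Rpl17-ps3 from -0.971 to 1.42. Both have a full reading frame and identities of 99.28% and 99.64%.

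A narrower spread of the sum was seen in some other families once further annotated genes with a shared 50-base stretch were added. This wider sum was defined after the values were seen and left out some genes with a shared stretch. Among the 42 families, the highest parent reading was over 1.5 times the lowest in 8, over the same 5 libraries. For the wider sums this held in 1, Rpl7a, at 1.61, with 115 of 117 sharing genes entered. Ciapin1 and Dennd1b, which share a stretch with Rpl7a and had means of 109.6 and 66.04 CPM, were not in it. The ratio with them was not computed. In those 8 families the parent held very unequal parts of the wider sum. Its part was 1.167% for Rpl26, 1.628% for Rpl21, 3.995% for Rps10 and 7.929% for Rpl30. It was 31.1% for Rpl17, 34.44% for Rpl35a, 71.78% for Rps12 and 76.89% for Rpl7a. Where the part is small, the spread of the wider sum is mostly that of other genes and says little about the parent. Rpl30 read 70.22 and 43.88, then 35.35 and 22.24, then 23.61 and 98.01 CPM, and the wider sum 643.3 and 708.2, then 210.8 and 713.9, then 734.1 and 729.3, most of it on Gm12191, a pseudogene outside the naming rule with a mean of 566.4 CPM. The ratio of highest to lowest reading over 5 libraries was 4.41 for Rpl30 and 1.14 for the wider sum. Adding the members alone gave a narrower ratio than that of the parent in 9 of the 42 families.

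**Figure D4:**
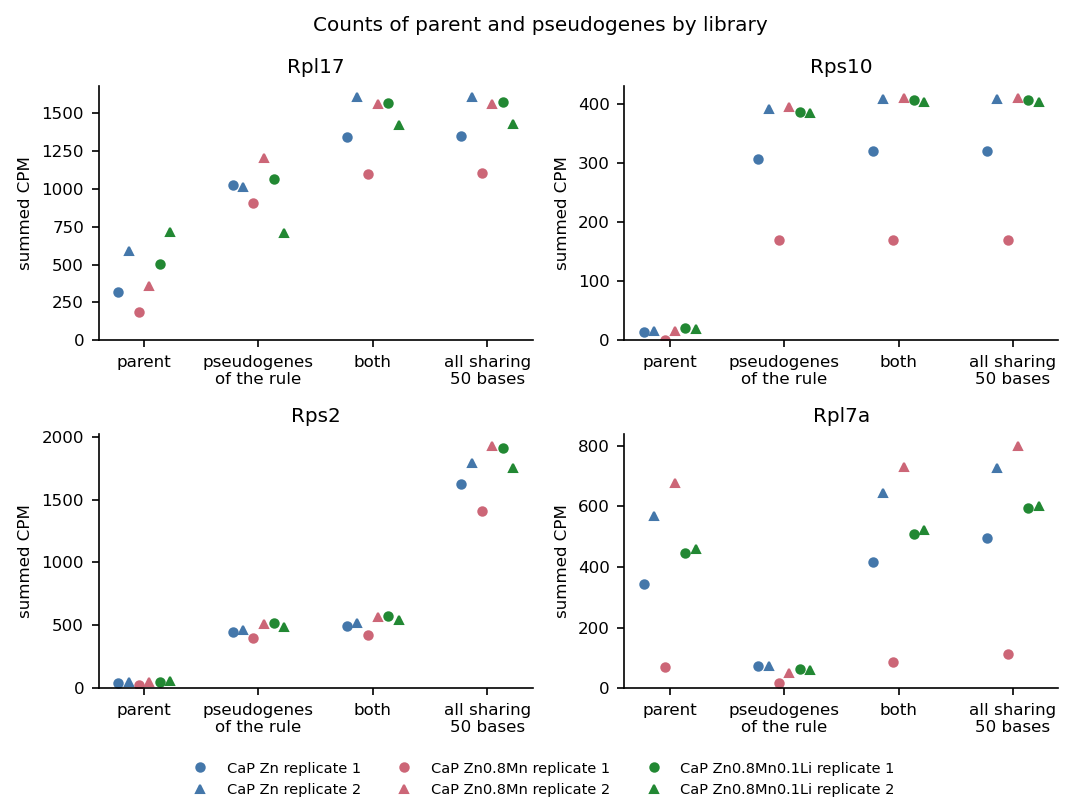
CPM per library of the parent, its pseudogenes under the naming rule, both summed, and the wider sum, for 4 families, with colour for the alloy and symbol shape for the replicate. The wider sum takes in annotated genes that share a 50-base stretch with the parent (115 of 117 for Rpl7a, 3 of 4 for Rps10). For Rpl17 the parent spreads more widely than the sum, and for Rpl7a the sum keeps a spread of 1.61 times over the 5 libraries other than CaP Zn0.8Mn replicate 1.

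CaP Zn0.8Mn replicate 1 differed from the other libraries across the members. Of the 75 pseudogenes with enough counts to be tested, 42 (56.0%) lay more than 2-fold below their mean over the other 5 libraries, against 18.0% of all 13156 genes tested, and 1 was over 2-fold higher, Rpsa-ps1, against 15.2%. The median log2 difference was -1.08 for the tested pseudogenes, -1.21 for their parents, with 27 of 42 over 2-fold lower, and -0.506 for the 640 other tested processed pseudogenes. In each of the other libraries, at most 2 members lay over 2-fold below the mean of the rest. That mean was taken without CaP Zn0.8Mn replicate 1. In CaP Zn0.8Mn replicate 1 itself, pseudogene and parent were not lower by the same amount. Of the 75, 33 differed by less than 0.5 on the log2 scale and 24 by more than 1. In Rps10 the parent was lower by far more (log2 difference -4.23) than Rps10-ps2 (-1.08), and in Rpl21 the parent differed by -0.0932 and Rpl21-ps15 by -2.15. Rpl7a differed by -2.84 and its copy Rpl7a-ps11 by -0.463. Rpl21-ps10, at 0.6608 CPM there and 2.69 to 5.43 elsewhere, differed by -2.46. This comparison has 1 library on one side and no test.

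**Figure D5:**
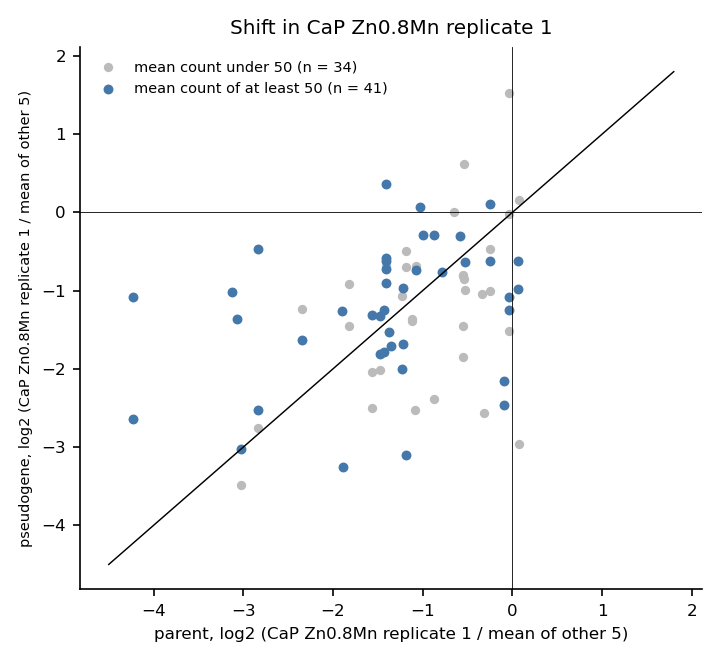
Log2 difference between CaP Zn0.8Mn replicate 1 and the mean of the other 5 libraries for each of the 75 tested pseudogenes (y axis) against that of its parent (x axis), with the line of equality. Most points lie below 0 on both axes, and 14 of the 41 with a mean of at least 50 counts lie over 1 log2 unit from the line.

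The alloys were compared to see whether the pseudogenes changed with manganese or with manganese and lithium. With edgeR's quasi-likelihood test on all 6 libraries, 0 of the 75 tested pseudogenes passed an adjusted p of 0.05 in any of the 3 comparisons, as did 0 of 13156 genes (0.0%). At an unadjusted p under 0.05 there were 2 members in CaP Zn0.8Mn against CaP Zn, where 207 genes reached it, and 0 members when CaP Zn0.8Mn0.1Li was set against either CaP Zn (29 genes) or CaP Zn0.8Mn (316 genes). DESeq2 and limma-voom also called 0 members in each, with at most 2 and 3 members at an unadjusted p under 0.05. Among the 2 members of the edgeR test was Rpl5-ps1, a copy of a large-subunit protein gene, at 0.914 and 0.8955 CPM in the CaP Zn libraries and 2.115 and 2.004 in those of CaP Zn0.8Mn, so that the groups did not overlap. Over all tested members, 5 were higher and 2 lower without overlap, where 12.5% and 12.8% of all genes were. Rpl5-ps1 was named after its values were seen, and edgeR gave it an adjusted p of 0.773.

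Both CaP Zn0.8Mn libraries bear on these counts. Without CaP Zn0.8Mn replicate 2, which leaves replicate 1 alone in its group, 45 of 82 tested pseudogenes were called lower and 2 higher than on CaP Zn, beside 29.6% and 28.4% of 14130 genes. In the same setting 46 were called higher and 1 lower in CaP Zn0.8Mn0.1Li than in CaP Zn0.8Mn, beside 30.3% and 29.8% of genes. Without CaP Zn0.8Mn replicate 1, 1 of 84 was called lower than on CaP Zn, beside 0.0147% of genes. The comparison of CaP Zn0.8Mn0.1Li with CaP Zn then called 0 pseudogenes beside 0.00734% of genes, and that with CaP Zn0.8Mn 0 beside 0.0294%, of which 0.022% were lower. In these fits the lone CaP Zn0.8Mn library is taken to vary like those of the other groups.

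The medians moved with the libraries that entered. The median log2 fold change of the tested pseudogenes was -0.195 for CaP Zn0.8Mn against CaP Zn (19 of 75 positive), beside -0.349 for the parents and 0.00476 for all genes. It was -1.1 without CaP Zn0.8Mn replicate 2, and -0.35 and -0.0804 without CaP Zn replicate 1 and 2 in turn. Without CaP Zn0.8Mn replicate 1 it was 0.24 (71 of 84 positive), beside 0.127 for the parents and -0.00935 for all genes. The single remaining CaP Zn0.8Mn library then lay above both CaP Zn libraries for 57 of 84 pseudogenes and below both for 2, beside 32.1% and 32.8% of all genes tested. The parents leaned the same way, with 52.4% above and 2.38% below. For the other processed pseudogenes these were 46.5% and 24.3%. In CaP Zn0.8Mn0.1Li relative to CaP Zn the median was 0.0845 (55 of 75 positive), beside 0.0852 for the parents. It turned to -0.0114 (41 of 84 positive) without CaP Zn replicate 1 and to -0.006 (41 of 85) without CaP Zn0.8Mn0.1Li replicate 1, and was 0.253 without CaP Zn replicate 2 and 0.177 without CaP Zn0.8Mn0.1Li replicate 2. With all libraries, 21 pseudogenes were higher and 3 lower without overlap between the groups, where 16.7% and 16.8% of all genes were. Rpl17-ps10 and Rpl7a-ps5 were among the lower ones. Relative to CaP Zn0.8Mn the median was 0.352 with all libraries and 1.27 without CaP Zn0.8Mn replicate 2. The first of these fits had 10 higher and 3 lower pseudogenes without overlap, beside 17.1% and 17.5% of genes. Leaving out CaP Zn0.8Mn replicate 1 gave -0.189, with 10 of 84 higher and 54 lower beside 33.5% and 34.1%. Each library enters 2 of these comparisons.

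Set against their own parents, the pseudogenes had a median log2 fold change 0.147 above the parent's for CaP Zn0.8Mn against CaP Zn. The median difference was 0.0091 for CaP Zn0.8Mn0.1Li relative to CaP Zn and -0.187 relative to CaP Zn0.8Mn. With CaP Zn0.8Mn replicate 1 left out these were 0.135, 0.0149 and -0.201, and without CaP Zn0.8Mn replicate 2 they were 0.0274, 0.0089 and 0.0706. The second was -0.102 without CaP Zn0.8Mn0.1Li replicate 1, 0.0258 without CaP Zn0.8Mn0.1Li replicate 2 and 0.0176 without CaP Zn replicate 2. The third was -0.287 and -0.0745 without CaP Zn0.8Mn0.1Li replicate 1 and 2 in turn. The share of pseudogenes in the summed counts of members and parents was 10.02% and 9.578%, then 10.36% and 10.18%, then 9.778% and 9.145%. Group means were 9.801% ± 0.315, 10.27% ± 0.124 and 9.461% ± 0.448 (SD, n = 2). The CaP Zn0.8Mn libraries lay above all others, and the exact two-sided permutation test gave p = 0.333 against CaP Zn and p = 0.333 against CaP Zn0.8Mn0.1Li, with p = 0.667 between the remaining pair of groups. With 2 libraries per group this test cannot go below 0.333. With CaP Zn0.8Mn replicate 1 left out, the remaining 10.18% still lay above the other 4 libraries, with no SD. Without the Rpl17 family the shares were 7.998% and 7.914%, 7.44% and 8.197%, and 8.038% and 7.938%, and the groups overlapped.

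Rpl7a-ps5 was the member that passed when CaP Zn0.8Mn replicate 1 was left out. It lies on chromosome 17 (57838430 to 57839221, minus strand, GRCm38), in an intron of Cntnap5c on the other strand, which had 0 counts. Its identity to Rpl7a, a large-subunit protein gene, is 98.86%, and its longest open reading frame has 264 codons where Rpl7a has 266. Rpl7a-ps5 read 61.56 and 58.47, then 8.657 and 34.19, then 47.63 and 48.24 CPM. The 3 groups did not overlap, with CaP Zn highest and CaP Zn0.8Mn lowest. Without overlap, 12.8% of all tested genes were lower in CaP Zn0.8Mn than in CaP Zn. Likewise, 16.8% were lower in CaP Zn0.8Mn0.1Li than in CaP Zn, and 17.1% higher than in CaP Zn0.8Mn. For the whole order no share over all genes was computed. With all 6 libraries the log2 fold change of CaP Zn0.8Mn against CaP Zn was -1.49 (SE 0.604, edgeR adjusted p = 0.773). Without CaP Zn0.8Mn replicate 1 it was -0.81 (SE 0.121, edgeR adjusted p = 0.0204), where 2 of 13627 genes passed (0.0147%), and the adjusted p was 0.00594 with DESeq2 and 0.0425 with limma-voom on the same 5 libraries.

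Rpl7a did not share that order. Rpl7a read 342.9 and 570.1, then 69.85 and 678.0, then 447.3 and 460.4 CPM, so that CaP Zn lay inside the range of CaP Zn0.8Mn. Without CaP Zn0.8Mn replicate 1 its log2 fold change was 0.57 (SE 0.296, edgeR adjusted p = 0.969). Rpl7a-ps11, a copy on the X chromosome with an identity of 99.75%, read 11.94 and 12.6, then 9.317 and 15.64, then 13.89 and 10.21 CPM. Of the 50-base stretches of Rpl7a-ps5, 52.76% occur exactly in Rpl7a and 21.67% in no other annotated gene, while Rpl7a-ps11 has 0 stretches of its own. The part of shared reads in the values of Rpl7a-ps5 was not tested.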

How the data were processed

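Polyadenylated RNA of 6 libraries, 3 groups of 2, was grouped by the treatment label. The authors deposited whole-number read counts per gene, used for every test, and FPKM values, used for levels per length. No aligner, counting program or strand setting is named in any source used here. Per the submitters' processing notes the build was mm9, but 53499 of 54409 matched gene identifiers (98.3%), and 106 of 107 members, have GRCm38 positions in GENCODE M21, so coordinates are given as GRCm38.

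Totals were 14944070 to 17709290 counts, and the limit of 3 counts covers counting error only. CPM used TMM factors (0.9733 to 1.051). Tests were edgeR 4.0.16 in R 4.3.3 (robust quasi-likelihood, filterByExpr, 13156 genes, 3 residual degrees of freedom, two-sided, Benjamini-Hochberg adjustment over all genes). The test was also run on simulated data with the same spread for every gene and no outlying library. That run does not cover a library such as CaP Zn0.8Mn replicate 1. Alternatives were RLE factors, library totals, DESeq2 1.42.0, limma-voom (limma 3.58.1), other count filters, a replicate block and each library left out, with filterByExpr applied again. DESeq2 and limma-voom on 5 libraries and the share without the Rpl17 family were added after the values were seen. The log2 ratio to the parent used a pseudocount worth 0.5 counts. The SE beside an edgeR value is the size of the log2 fold change divided by the square root of its F statistic.

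Each pseudogene was aligned with Biopython 1.88 to the best-scoring protein-coding transcript of its parent. The longest transcript had been planned, but gave partial alignments. Windows of 50 bases were matched to all annotated transcripts. 

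The members, lists and tests were chosen with earlier results of these data known. Named pseudogenes are the 10 of highest mean CPM, the 8 with the widest and 4 with the narrowest range of the log2 ratio and the 3 of highest and 3 of lowest identity (each among members of at least 50 mean counts), those called in any comparison, with all libraries or with CaP Zn0.8Mn replicate 1 left out, their parents, and those beside the limit of 10 counts. Others were named after their values were seen. Some items are not reported here. The tables hold 0 columns of other samples. Within groups, counts differed by more than sampling noise (chi-square per gene 5.71 to 248).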

Additional observations from a re-analysis of the deposited data

How the results depend on the processing

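Leaving out single libraries moved the counts of calls most: over the 6 such fits the genes called ranged from 0 to 8197 (CaP Zn0.8Mn over CaP Zn), 0 to 1 (CaP Zn0.8Mn0.1Li over CaP Zn), 0 to 8489 (CaP Zn0.8Mn0.1Li over CaP Zn0.8Mn) and 0 to 7944 (3 alloys together), and the pseudogenes called from 0 to 47 in the first and the third. The low-count filter was applied again in each. DESeq2 called 1 and 3 genes in the first and the third comparison with 6 libraries and 5, 1 and 3 in the 3 comparisons without CaP Zn0.8Mn replicate 1, where limma-voom called 3, 0 and 3, and 3 over the 3 alloys. Both then called 1 pseudogene in the first, Rpl7a-ps5. Without a count filter, 1 gene was called in the first and 1 in the third. The replicate block gave 0 calls in all 3 comparisons, and same-numbered libraries did not all deviate together (correlations 0.263, -0.162 and -0.0947). With 2 libraries per group these values cannot show whether the numbers pair the samples.

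With single libraries left out, the median log2 fold change of tested pseudogenes ranged from -1.1 to 0.24, from -0.0114 to 0.253 and from -0.189 to 1.27 in the 3 comparisons. The median pseudogene minus parent difference ranged from 0.0274 to 0.189 in the first, from -0.102 to 0.0258 in the second and from -0.287 to 0.0706 in the third, and was -0.0273 in the second among members of at least 100 mean counts. The median range of the log2 ratio to the parent was 0.408 to 0.857. The share of pseudogenes was 23.7%, 26.22% and 22.87% from FPKM, 7.423%, 8.011% and 7.163% without Rpl3-ps1, and 7.956%, 7.819% and 7.988% without the Rpl17 family, with CaP Zn first and CaP Zn0.8Mn0.1Li last. The causes were not tested.

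None of the 21 named pseudogenes was called with 6 libraries, and 67 of 567 alternatives changed the sign of a log2 fold change, 32 of them without CaP Zn0.8Mn replicate 1. With library totals these were Rpl3-ps1 at -0.028 and Rpsa-ps10 at -0.0326 for CaP Zn0.8Mn0.1Li over CaP Zn, and Rpl7a-ps11 at -0.0165 for CaP Zn0.8Mn over CaP Zn. With the replicate block they were Rpl35a-ps2 at 0.0174 and Rpl9-ps7 at 0.0264 for CaP Zn0.8Mn0.1Li over CaP Zn. The others came from leaving out 1 library each. Where a sign changed, the ranges over these fits were, for CaP Zn0.8Mn over CaP Zn, Rpl14-ps1 -1.44 to 0.307, Rpl17-ps10 -0.785 to 0.113, Rpl21-ps10 -2.48 to 0.585, Rpl21-ps15 -2.13 to 0.167, Rpl23a-ps3 -1.01 to 0.144, Rpl28-ps1 -3.01 to 0.082, Rpl3-ps1 -0.983 to 0.145, Rpl31-ps8 -1.92 to 0.25, Rpl35a-ps2 -3.15 to 0.05, Rpl7a-ps11 -0.435 to 0.351, Rpl9-ps7 -1.24 to 0.237, Rps10-ps2 -1.03 to 0.161, Rps13-ps2 -1.8 to 0.0553, Rps15a-ps6 -0.539 to 0.214, Rps16-ps2 -0.615 to 0.108, Rps19-ps3 -1.18 to 0.377, Rps2-ps13 -0.245 to 0.166, Rps6-ps4 -0.167 to 0.385, Rpsa-ps10 -1.1 to 0.0915. Where a sign changed, the ranges over these fits were, for CaP Zn0.8Mn0.1Li over CaP Zn, Rpl21-ps15 -0.0741 to 0.173, Rpl23a-ps3 -0.068 to 0.191, Rpl28-ps1 -0.0977 to 0.281, Rpl3-ps1 -0.112 to 0.138, Rpl35a-ps2 -0.194 to 0.0759, Rpl7a-ps11 -0.266 to 0.174, Rpl9-ps7 -0.203 to 0.148, Rps10-ps2 -0.0356 to 0.326, Rps13-ps2 -0.462 to 0.0146, Rps15a-ps6 -0.11 to 0.57, Rps16-ps2 -0.12 to 0.257, Rps6-ps4 -0.006 to 0.335, Rpsa-ps10 -0.131 to 0.149. Where a sign changed, the ranges over these fits were, for CaP Zn0.8Mn0.1Li over CaP Zn0.8Mn, Rpl14-ps1 -0.157 to 1.59, Rpl17-ps10 -0.746 to 0.249, Rpl21-ps10 -0.809 to 2.25, Rpl21-ps15 -0.11 to 2.19, Rpl23a-ps3 -0.084 to 1.07, Rpl3-ps1 -0.134 to 0.993, Rpl31-ps8 -0.0882 to 2.09, Rpl35a-ps2 -0.0999 to 3.1, Rpl7a-ps11 -0.377 to 0.409, Rpl9-ps7 -0.25 to 1.23, Rps10-ps2 -0.0229 to 1.17, Rps13-ps2 -0.288 to 1.57, Rps16-ps2 -0.0465 to 0.676, Rps19-ps3 -0.0719 to 1.48, Rps2-ps13 -0.0348 to 0.376, Rps6-ps4 -0.207 to 0.344, Rpsa-ps10 -0.0851 to 1.1. A further 35 alternatives, 34 of them without CaP Zn0.8Mn replicate 2, brought a named pseudogene past the threshold. Depth limited the tests to 75 of the 107 members.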
